A study of Mus musculus with 10 samples.

Results

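The 9 interferon-stimulated genes Ifit1, Ifit3, Isg15, Irf7, Stat2, Oas1a, Bst2, Ifi27 and Rsad2 were followed in iBAT, the interscapular depot of brown adipose tissue, which burns fuel to produce heat. They were picked by gene symbol out of 54347 gene records, and each symbol matched 1 record. The samples came from 10 mice on the C57BL/6N background, aged 12 weeks and fed chow, each kept alone in the cold (4 °C, 24 h). Of these, 5 were ΔGm15551 mice, in which exon 1 of the long noncoding RNA gene Gm15551 had been removed from the germline with CRISPR/Cas9, and 5 were wild type litter mates. The deletion is carried in every cell, not in adipocytes alone, and the knock-out line had been crossed back to wild type animals before use. All mice had been in the cold, so that no value of unchallenged tissue stands beside them. The question of the design was whether loss of Gm15551 altered expression in cold-activated iBAT.

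Interferons are secreted proteins that warn cells of viral infection. Type I interferons bind a receptor made of IFNAR1 and IFNAR2, the kinases JAK1 and TYK2 then act on STAT2, and STAT2 joins IRF9 in a complex that binds an interferon-stimulated response element in the promoters of the responding genes. The products block viruses at several steps, and a low tonic level of the same genes is found in uninfected tissue, where macrophages and endothelial cells are known to respond readily.

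Libraries held between 9680976 and 15771170 counts. Gm15551 itself had 0 counts in the 5 ΔGm15551 libraries together and 16 in the wild type libraries, with 0 to 7 per mouse and 0 in wild type replicate 7 (exact permutation test on CPM, two-sided, p = 0.0476, and 0.0873 without any 1 ΔGm15551 mouse). Levels are given in CPM, counts scaled to a common library size with TMM factors (the scaling of edgeR that sets most genes level). The brown adipocyte gene Ucp1 lay between 5747 and 10990 CPM, so that the tissue label was borne out by its defining marker. Libraries stood apart in skeletal muscle RNA: 10 muscle genes summed to between 1.35 and 1952 CPM in ΔGm15551 mice and between 1.56 and 2939 CPM in wild type mice.

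Gene positions were read from the GENCODE annotation of GRCm38, and counts cover the exons of a gene. Ifit1 (chromosome 19, 34640871 to 34650009, plus strand) and Ifit3 (chromosome 19, 34583531 to 34588731, plus strand) lie in the same cluster. Rsad2 (26442746 to 26456452, minus strand) and Ifi27 (103434211 to 103440239, plus strand) are both on chromosome 12. Isg15 lies on chromosome 4 (156199424 to 156200818, minus strand), Oas1a on chromosome 5 (120896256 to 120907521, minus strand) and Irf7 on chromosome 7 (141262706 to 141266481, minus strand). Bst2 lies on chromosome 8 (71534255 to 71537456, minus strand) and Stat2 on chromosome 10 (128270559 to 128292849, plus strand).

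The letters of the response element recur in the members' promoters. The RefSeq promoter table for GRCm38.p6, which covers 250 bases before and 50 after each start, held 8 members, and Ifi27 was not among them. The core, GAAA and GAAA with NN (any 2 bases) between them, was searched on both strands. At least 1 match was found for 7 of the 8 members (87.5%), against 3.99% of the 27025 genes in the table, and all 7 had it before the start. The share was 46.7% of 45 other interferon-stimulated genes, 52.2% of 23 genes tied to interferon gamma and 55% of 20 interferon genes. It was 25% of 12 sensors and adaptors, 0% of 9 receptor and JAK-STAT genes and 0% of 4 ISG15 conjugation genes. Irf7 had no match in this window. At least 2 matches, counting overlapping ones, were found for 5 members (62.5%), against 0.266% of all genes. Among the other interferon lists this share ran from 0% to 30%. The windows below show 1 match for each of the 7 genes on the gene's strand, with the core in capitals. Where the capitals begin with TTTC, the core is on the opposite strand.

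Ifit1 (chr19:34640777-34640802, plus strand): ggcttcagTTTCACTTTCcagtctca

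Ifit3 (chr19:34583365-34583390, plus strand): gtggtaagTTTCACTTTCctcttctg

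Isg15 (chr4:156200873-156200898, minus strand): aggaaaagGAAACCGAAAcagaaaat

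Stat2 (chr10:128270268-128270293, plus strand): caccctggTTTCAGTTTCctttccct

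Oas1a (chr5:120907528-120907553, minus strand): cttctcggGAAATGGAAActgaaaat

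Bst2 (chr8:71537585-71537610, minus strand): cattccagGAAAATGAAActgaaagg

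Rsad2 (chr12:26456555-26456580, minus strand): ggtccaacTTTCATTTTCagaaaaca

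Ifit1 and Ifit3 carried the same capital letters in the windows shown. In Ifit1 the core began 104 bases before the start and in Ifit3 156 bases before it, and each had a further match. Each of the 3 matches of Isg15 overlapped the next, as did the 2 of Oas1a and the 2 of Bst2, since the GAAA of a match can open the next one. The core of Oas1a began closest to the start, at 20 bases for the window shown, and that of Stat2 farthest away, at 222 bases. A match is a description of letters and was not tested for binding.

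All 9 members passed the filter on low counts, which kept 13732 genes. Per kilobase of the longest coding transcript, Ifi27 stood first with 1435 ± 150 CPM (SD, n = 10 mice), followed by Bst2 with 19.0 ± 4.90 and Stat2 with 4.61 ± 0.688. Ifi27 was above Bst2 and Bst2 above Stat2 in all 10 mice. Isg15 (3.42 ± 1.176), Rsad2 (3.13 ± 0.666), Irf7 (2.68 ± 0.687) and Ifit3 (2.50 ± 0.518 CPM per kilobase) lay close together. Neighbours among Stat2, Isg15, Rsad2, Irf7 and Ifit3 kept their order in 6 to 8 of the 10 mice, so that genes next to each other in this order did not separate beyond the spread. When the length of all exons was used, Isg15 changed places with Stat2 and Ifit3 with Irf7. Ifit3 was above Ifit1 (1.03 ± 0.287) in all 10 mice, and Oas1a (0.751 ± 0.309 CPM per kilobase) was last. Ifi27 was expressed above 99.6% of the genes tested on the CPM scale, and Oas1a above 10.1%.

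Ifit1 and Ifit3 encode proteins with tetratricopeptide repeats, and IFIT1 recognises RNA whose cap lacks the methylation of host RNA. Ifit1 was at 3.60, 3.62, 2.38, 3.30 and 3.06 CPM in ΔGm15551 replicates 1, 2, 4, 5 and 7. In wild type replicates 2, 3, 5, 6 and 7 it was at 3.49, 1.71, 2.15, 1.89 and 2.05 CPM. Wild type replicate 2 lay within the ΔGm15551 range, whereas the other 4 wild type mice were below all ΔGm15551 mice, with group means of 3.19 ± 0.509 and 2.26 ± 0.709 CPM (SD, n = 5 each). The log2 fold change (log2FC, ΔGm15551 minus wild type) was 0.50 (SE 0.23). By edgeR's quasi-likelihood test the unadjusted p was 0.0449, and after Benjamini-Hochberg adjustment it was 0.9998. The log2FC was 0.71 without wild type replicate 2, and the unadjusted p ran from 0.00471 to 0.386 over the alternatives. This p was above 0.05 without ΔGm15551 replicate 1 (0.0848), 2 (0.0915), 5 (0.0737) or 7 (0.0609) and without wild type replicate 3 (0.101), 5 (0.0783), 6 (0.101) or 7 (0.0770).

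Ifit3 did not go the same way. It was at 5.72, 4.62, 3.57, 3.22 and 3.65 CPM in ΔGm15551 replicates 1, 2, 4, 5 and 7, and at 5.91, 3.94, 4.86, 4.10 and 4.00 CPM in the wild type replicates 2, 3, 5, 6 and 7. The groups overlapped, and 1 mouse in each group was above the others (log2FC -0.13, SE 0.20, edgeR adjusted p = 0.9998). Of the 31-base words in the Ifit3 transcript 61.8% also occur in Ifit3b, so the split of counts between the pair is uncertain. With both summed, the log2FC was -0.10. With 1 mouse left out, that of Ifit3 ran from -0.28 (without ΔGm15551 replicate 1) to -0.025 (without wild type replicate 2).

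Isg15 encodes a ubiquitin-like protein that is joined to other proteins and also secreted. ΔGm15551 replicates 1, 2, 4, 5 and 7 had 4.33, 2.70, 2.60, 3.07 and 2.16 CPM. Wild type replicates 2, 3, 5, 6 and 7 had 2.69, 1.2, 1.72, 2.02 and 3.39 CPM. The lowest wild type mouse was 3.61-fold below the highest ΔGm15551 mouse, yet the ranges overlapped, and the means were 2.97 ± 0.824 and 2.20 ± 0.854 CPM (SD, n = 5 each; log2FC 0.45, SE 0.28, edgeR unadjusted p = 0.139, adjusted p = 0.9998). Without wild type replicate 7 the log2FC was 0.64 and the unadjusted p 0.0372, whereas without ΔGm15551 replicate 1 it was 0.27 (p 0.353) and without wild type replicate 3 it was 0.29 (p 0.296). With the 6 mice that carry numbers 2, 5 or 7 alone, the log2FC was 0.040.

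Irf7 and Stat2 encode transcription factors of the response: IRF7 drives interferon genes after infection, and STAT2 carries the signal from the receptor to the promoters. Irf7 was at 7.12, 6.18, 5.73, 6.44 and 4.62 CPM in ΔGm15551 replicates 1, 2, 4, 5 and 7. In wild type replicates 2, 3, 5, 6 and 7 it was at 7.79, 3.68, 4.43, 5.34 and 8.52 CPM. All 5 ΔGm15551 mice fell inside the wild type range, and the means were 6.02 ± 0.928 and 5.95 ± 2.11 CPM (SD, n = 5 each). The log2FC of Irf7 was 0.02 (SE 0.23), and from -0.11 (without wild type replicate 3) to 0.18 (without wild type replicate 7) with 1 mouse left out. Stat2 was at 21.5, 21.7, 16.4, 17.4 and 20.3 CPM in these ΔGm15551 mice and at 24.3, 17.1, 18.7, 19.9 and 25.5 CPM in the wild type mice, again with overlapping ranges (log2FC -0.11, SE 0.13, and from -0.18 without wild type replicate 3 to -0.038 without wild type replicate 7). In wild type mice replicates 2 and 7 were the highest for both genes and replicate 3 the lowest.

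Oas1a, Rsad2 and Bst2 are antiviral effectors. Oas1a encodes a synthetase of oligoadenylates, which switch on the RNA-degrading enzyme RNase L. It had 9 to 35 counts per mouse, or 2.57, 1.49, 0.670, 1.07 and 1.27 CPM in ΔGm15551 replicates 1, 2, 4, 5 and 7, and 1.43, 0.942, 1.14, 1.30 and 2.26 CPM in the wild type replicates 2, 3, 5, 6 and 7. Both ends of the range were ΔGm15551 mice, a 3.83-fold span, and the group means were almost the same (log2FC 0.02, SE 0.35). Of its 31-base words 68.8% occur in another gene record, mostly Oas1g, which had at most 8 counts in any mouse. With both summed, the log2FC was 0.093. Leaving out 1 mouse at a time moved the log2FC of Oas1a between -0.31 (without ΔGm15551 replicate 1) and 0.23 (without wild type replicate 7), so that its sign was not settled.

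Rsad2 encodes viperin, a radical SAM enzyme that makes a chain-terminating nucleotide. It was at 13.6, 16.0, 12.4, 9.13 and 9.92 CPM in ΔGm15551 replicates 1, 2, 4, 5 and 7, and at 12.9, 9.94, 9.08, 10.2 and 15.1 CPM in the wild type replicates 2, 3, 5, 6 and 7. The groups overlapped over most of their range (log2FC 0.10, SE 0.18), and leaving out 1 mouse at a time moved the log2FC between -0.022 (without ΔGm15551 replicate 2) and 0.21 (without wild type replicate 7). Bst2 encodes tetherin, a membrane protein that holds budding virus at the cell surface. Its levels were 20.7, 14.6, 11.8, 20.6 and 13.0 CPM in the ΔGm15551 mice and 18.2, 10.6, 12.2, 11.3 and 17.5 CPM in the wild type mice, in the same order of replicates. In each group the highest mouse had over 1.5 times the level of the lowest, and the group means differed by less than this (log2FC 0.21, SE 0.20). Leaving out 1 mouse at a time moved this log2FC between 0.11 (without ΔGm15551 replicate 1 or 5) and 0.33 (without wild type replicate 2), and in the blocked fit of 6 mice it was 0.0052.

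Ifi27, which encodes a small hydrophobic membrane protein, was the exception in level and in evenness. ΔGm15551 replicates 1, 2, 4, 5 and 7 had 1577, 1160, 1343, 1560 and 1425 CPM. Wild type replicates 2, 3, 5, 6 and 7 had 1561, 1305, 1502, 1237 and 1346 CPM. The highest mouse was only 1.36-fold above the lowest, and the groups covered much the same range (log2FC 0.02, SE 0.13, and from -0.019 without ΔGm15551 replicate 1 to 0.086 without ΔGm15551 replicate 2). Its relative Ifi27l2a, chosen after its values were seen, was less abundant and less even, with 142 ± 78.5 CPM in the knock-out mice and 143 ± 62.2 CPM in their litter mates (SD, n = 5 each).

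**Figure D1:**
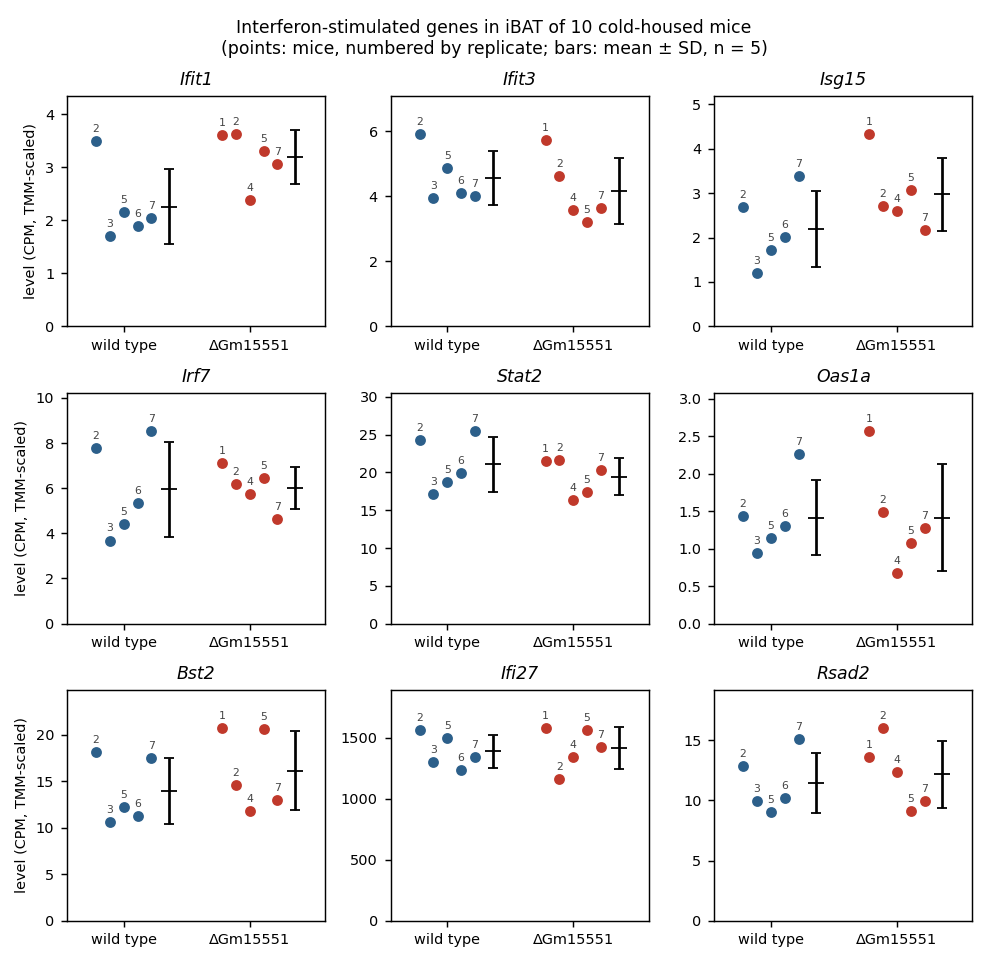
Level of each member in CPM (TMM-scaled, linear axes from 0) in the 5 wild type (blue) and 5 ΔGm15551 (red) mice. Points are mice numbered by replicate and bars are mean ± SD. For every member the ranges of both groups overlap, and Ifi27 has the smallest ratio of highest to lowest mouse, 1.36.

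Whether the knock-out changed the members was then tested in a fit over all 13732 genes (edgeR's quasi-likelihood test, Benjamini-Hochberg). At an adjusted p under 0.05, 0 of 9 members were called, against 0.0% of the genes tested, and all 9 had an adjusted p of 0.9998. At an unadjusted p under 0.05 there was 1 member, Ifit1, where 1.59% of the genes tested passed, 0.961% higher in ΔGm15551 and 0.634% lower. Ifit1 was also the only member at this unadjusted level in DESeq2 (1.66% of genes) and in limma-voom (1.81%), and in the fit of 6 mice blocked by their number there was none (2.88% of genes). None of the 9 members had all mice of a group above all mice of the other, against 0.32% of the genes tested. The estimated log2FC was above 0 for 7 members and below 0 for 2, with a median of 0.02, and the median over all genes tested was -0.00087.

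The intervals show what these 10 mice could bound. The limma-voom 95% confidence interval of the log2FC lay within a doubling or a halving for 8 members, and that of Isg15 ran from -0.09 to 1.10. It was narrowest for Ifi27 (-0.24 to 0.29) and Stat2 (-0.39 to 0.19), the members with the most counts, and widest for Oas1a (-0.79 to 0.70). For Ifit1 it ran from 0.07 to 0.998. The mice's identity numbers in the labels fall into a lower and a higher series. In the 7 mice of the lower series (5 ΔGm15551 and 2 wild type), the log2FC was 0.30 for Ifit1 and 0.62 for Isg15, and 0 members had an unadjusted p under 0.05 in edgeR, against 1.91% of the 14543 genes then tested. The 3 mice of the higher series were all wild type, so within that series no comparison could be made.

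**Figure D2:**
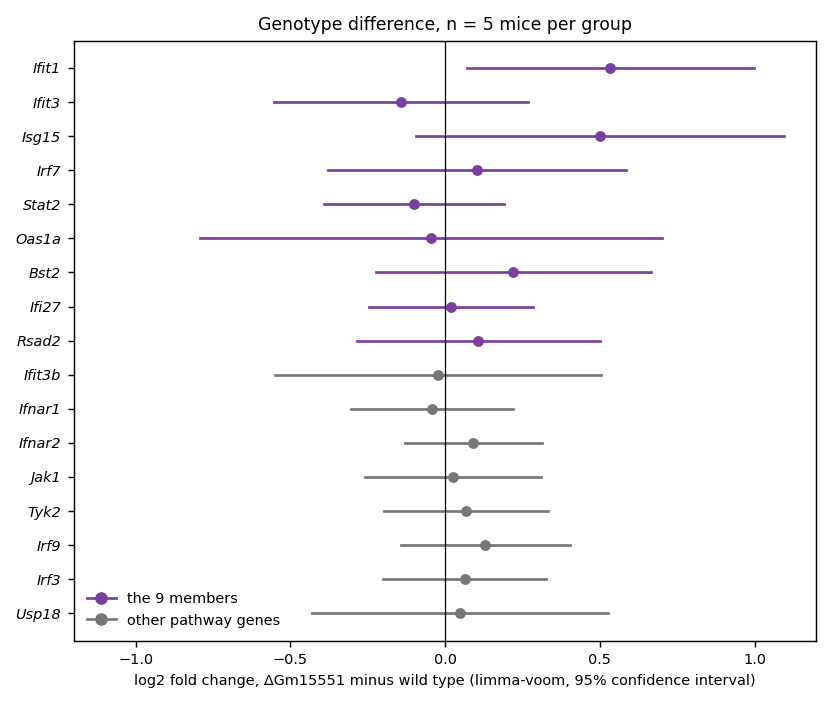
Log2 fold change between ΔGm15551 and wild type iBAT with its 95% confidence interval (limma-voom, n = 5 mice per group) for the 9 members (purple) and the named pathway genes (grey). Every interval but that of Ifit1 includes 0, and no gene shown passes an adjusted p under 0.05.

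The genes that act before and beside the members were compared in the same fit. The 21 interferon genes themselves were all but silent: 18 had 0 counts in every mouse, and Ifnb1, Ifnz and Ifng together made up the 10 counts found. At these depths a count of 0 in a library allows up to 0.190 to 0.310 CPM (3 counts, counting error only). The receptor and its signal chain were expressed, with Ifnar1 at 29.8 ± 4.96 and 30.4 ± 2.83 CPM and Ifnar2 at 78.4 ± 9.36 and 73.3 ± 4.86 CPM in ΔGm15551 and wild type (SD, n = 5 each). The log2FC was 0.03 (SE 0.13) for the kinase gene Jak1, 0.08 (SE 0.12) for the kinase gene Tyk2 and 0.14 (SE 0.12) for Irf9. Irf9 ranged from 11.8 to 17.98 CPM over the mice. None of these genes passed edgeR's test at an adjusted or an unadjusted p under 0.05.

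Over the 143 further interferon genes in the lists, 100 were tested, 47 with a log2FC above 0 and 53 below, and their median was -0.01. At an adjusted p under 0.05 edgeR called 0, and at an unadjusted p under 0.05 it also called 0, against 1.59% of all genes tested. DESeq2 and limma-voom called 0 at either level. Of the 10 receptor and JAK-STAT genes tested the smallest p was that of Il10rb (log2FC -0.12, unadjusted p = 0.282 in edgeR), a receptor chain shared by several cytokines. Among 14 nucleic acid sensors and adaptors it was Zbp1, a sensor of Z-form nucleic acids, with means of 0.516 ± 0.330 CPM in the knock-out and 0.919 ± 0.371 CPM in the controls (log2FC -0.80, SE 0.42, unadjusted p = 0.0794). Irf3, the factor that these sensors activate, was at 51.0 ± 4.90 and 49.2 ± 8.02 CPM (log2FC 0.05, SE 0.12).

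The genes of ISG15 conjugation were Uba7, Ube2l6, Herc6, Usp18 and Trim25, of which 3 had a log2FC above 0 and 2 below. The smallest p was that of Herc6, a ligase gene for ISG15 (log2FC -0.25, SE 0.22, unadjusted p = 0.282 in edgeR). Usp18, whose product removes ISG15 from its targets and damps the receptor, had means of 2.81 ± 0.734 CPM with the deletion and 2.69 ± 0.437 CPM without it. Among 41 other interferon-stimulated genes 22 were above 0 and 19 below, led by the exonuclease gene Trex1 (log2FC 0.41, SE 0.25, unadjusted p = 0.131 in edgeR). Among 30 genes more closely tied to interferon gamma 10 were above 0 and 20 below, led by Gbp7 (log2FC -0.34, SE 0.19, unadjusted p = 0.0893 in edgeR), which encodes a guanylate-binding protein. In no list did edgeR call a gene in either direction at an adjusted or an unadjusted p under 0.05.

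Within a genotype the members varied from mouse to mouse. The coefficient of variation within groups was 43.6% for Oas1a, 33.7% for Isg15, 27.3% for Irf7 and 26.0% for Bst2. Counting alone would give 23.5% for Oas1a, 17.3% for Isg15, 11.4% for Irf7 and 7.2% for Bst2, without the error of sharing reads between similar genes. For Ifi27 the coefficient was 11.1%, and for Stat2 14.99%. On the log2 scale the spread of Oas1a was above that of 89.5% of the genes tested and that of Ifi27 above 17.5%. Low genes have larger counting error, so these ranks also carry the level.

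The mice that were high were largely the same for different members. Relative to the mean of its own group on the log2 scale, ΔGm15551 replicate 1 and wild type replicate 2 were above it for all 9 members. Wild type replicates 3 and 6 were below it for all 9. ΔGm15551 replicate 4 was below its group mean for 8 members and wild type replicate 7 above it for 6. Wild type replicate 7 was high in Isg15 (0.67), Oas1a (0.67), Irf7 (0.58), Rsad2 (0.42), Bst2 (0.36) and Stat2 (0.29), and slightly low in Ifit3 (-0.17), Ifit1 (-0.09) and Ifi27 (-0.04).

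**Figure D3:**
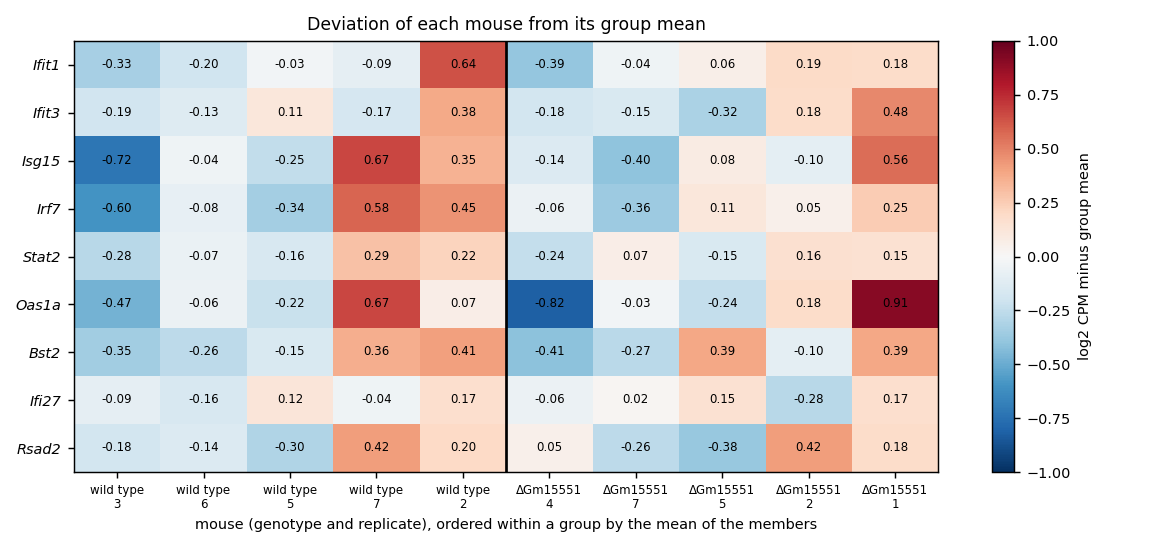
Log2 CPM of each member in each mouse minus the mean of the mouse's own group (colour and printed value), with mice ordered within a group by the mean of the 9 members. ΔGm15551 replicate 1 and wild type replicate 2 are above 0 in all 9 rows, wild type replicates 3 and 6 are below 0 in all 9, and the row of Ifi27 stays between -0.28 and 0.17.

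Pairs of members were compared by the correlation of these deviations over the 10 mice, given as a description. The median Pearson r over the 36 pairs was 0.57, and 22 pairs (61.1%) reached 0.5, against 17.2% of all pairs of genes tested. Isg15 and Irf7 followed each other most closely (r = 0.95), then Stat2 and Oas1a (0.83), Isg15 and Bst2 (0.83) and Irf7 and Bst2 (0.81). Ifit1 and Ifit3, of the same cluster on chromosome 19, had an r of 0.72. Ifi27 stood apart: its 8 pairs had a median r of 0.27, and with Rsad2 it was -0.33, whereas the 28 pairs without it lay between 0.33 and 0.95. Without ΔGm15551 replicate 1 and wild type replicate 2, the mice farthest from the median of the members' mean, the median r of the 36 pairs was 0.43 and 47.2% reached 0.5. The share over all pairs of genes was not taken without those mice, so 47.2% has no value beside it. Against the mean of the other 8 members, Isg15 (r = 0.86), Bst2 (0.83), Irf7 (0.83) and Stat2 (0.82) were closest, and Ifit3 went from 0.61 to 0.09 without those mice.

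The mean of the members, each in units of its own standard deviation, was then compared with every other gene. Many genes of this tissue move together, and 22.4% of the 13723 genes outside the members had an r of at least 0.5. Of the 100 further interferon genes tested, 66 did (66.0%), with a median r of 0.64, against 0.04 over all genes. By list, this was 26 of 30 genes tied to interferon gamma, 28 of 41 other interferon-stimulated genes and 5 of 5 genes of ISG15 conjugation. It was 5 of 14 sensors and adaptors and 2 of 10 receptor and JAK-STAT genes. Within the signal chain, Irf9 (r = 0.73) went with the members and Tyk2 (0.46) stayed under 0.5. Ifnar1 (0.21) and Ifnar2 (0.03) were nearer 0, and Jak1 (-0.49) ran the other way. Outside the chain, Irf3 (0.85), of the sensors and adaptors, and Usp18 (0.74), of ISG15 conjugation, went with the members. Without the same pair of mice 52 of the 100 genes reached 0.5, against 22.6% of all genes. The points share their libraries and scaling, and no p is given for a mean over chosen members.

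The 10 genes most like the members were Lama4 (r = 0.97), Cd63 (0.96), Coro1a (0.96), Peak1 (0.95), Ccdc61 (0.95), Fam171a2 (0.95), Csf2rb2 (0.94), Gm29562 (0.94), Wdr89 (0.93) and Irgm1 (0.93). Irgm1, which encodes an interferon-inducible GTPase, was the only gene of the interferon lists among them. Lama4 encodes a laminin chain of basement membranes, Cd63 a protein of late endosomes and Coro1a an actin-binding protein of leukocytes. Coro1a ran from 1.88 to 7.63 CPM over the mice and kept an r of 0.99 without the pair of mice named above. The top of this order was not stable, since only 3 of the 10 were kept with Spearman's rho and 2 without wild type replicate 2.

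**Figure D4:**
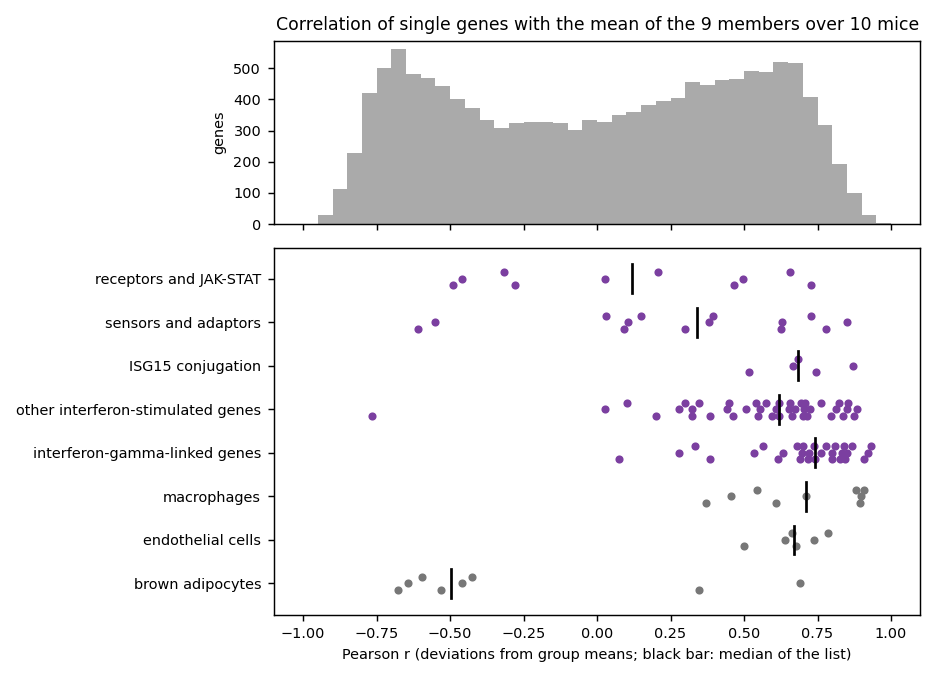
Pearson r of single genes with the mean of the 9 members over 10 mice (deviations from group means). Top, all 13723 genes outside the members; bottom, genes of the interferon lists (purple) and of the cell type lists (grey), 1 point per gene, with the median of a list as a black bar. Most genes tied to interferon gamma lie above 0.5, whereas receptor and JAK-STAT genes spread around a median of 0.12.

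Marker genes of the cell types in the tissue were compared with the members in the same way. The 10 macrophage genes summed to 113 CPM in ΔGm15551 replicate 1, 123 in wild type replicate 2 and 100 in wild type replicate 7, the mice high in Irf7. The other 7 mice had 58.4 to 74.5 CPM. Over the 9 macrophage genes tested, the mean of the list had an r of 0.86 with the mean of the members (Spearman's rho 0.75), and 0.64 without ΔGm15551 replicate 1 and wild type replicate 2. The agreement was uneven over the list: without those mice Lyz2 (0.89), C1qb (0.78), C1qa (0.75), Csf1r (0.75) and C1qc (0.75) reached 0.5, whereas Mrc1 (0.085), Cd163 (0.019), Adgre1 (-0.24) and Cd68 (-0.45) did not. The single members followed the list mean unequally over the 10 mice, from Isg15 (r = 0.78), Irf7 (0.76) and Ifit3 (0.76) to Ifi27 (0.35). Without those mice Ifit1 and Ifit3 had coefficients of 0.037 and 0.094, that of Ifi27 was -0.42, and those of Irf7 (0.81) and Rsad2 (0.87) were not lower. In bulk tissue more cells of a type and more RNA per cell cannot be told apart.

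Endothelial genes summed to 809 to 1373 CPM in ΔGm15551 mice and to 765 to 1274 CPM in wild type mice, and all 6 were tested. Their mean had an r of 0.71 with the members (rho 0.54) and 0.57 without the pair of mice. Bst2 (r = 0.85), Isg15 (0.75), Irf7 (0.66) and Ifi27 (0.66) followed it most, and Ifit3 (0.22) and Rsad2 (0.24) least. Without the pair of mice Ifit3 was at -0.57. Relative to the group means, the order of the mice differed in part from that of the members. ΔGm15551 replicate 2, above its group mean in 6 members, was the farthest below it in endothelial genes (-1.15 SD units). In summed CPM wild type replicate 6 was the lowest (765), and it was below its group mean for all 9 members. Rsad2 had a higher coefficient with the macrophage genes (0.69) than with the endothelial genes, and Ifi27 the reverse. The difference between these coefficients was not tested. Between the genotypes, the log2FC was below 0 for 9 of 9 macrophage genes and above 0 for 6 of 6 endothelial genes. Over all 13732 genes tested, 6902 were below 0 and 6830 above. Genes of a list varied together over the same mice, so their signs are not separate observations. At an adjusted or an unadjusted p under 0.05 edgeR called 0 of either list (smallest unadjusted p 0.123 and 0.262). The part of these cell types in the members' values was not tested.

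The mean of the 8 brown adipocyte genes ran against that of the members (r = -0.66, rho -0.66), with -0.78 without the pair of mice, but the single genes were split. The coefficients of Ppargc1a (-0.68), Prdm16 (-0.64), Dio2 (-0.60), Ucp1 (-0.53), Adipoq (-0.46) and Elovl3 (-0.42) were negative. Those of Cidea (0.35), a lipid droplet protein gene of brown fat, and Fabp4 (0.69), a fatty acid binding protein gene, were positive. Plasmacytoid dendritic cells are the main source of type I interferon in infection, and their defining gene Siglech had 2 to 5 counts per mouse. Of the 5 genes of that list only Il3ra, a cytokine receptor gene with 23 to 73 counts, passed the filter, and its r with the members was 0.55 (0.71 without the pair of mice). Of 6 monocyte and neutrophil genes 3 passed the filter, and 3 of 3 had an r of at least 0.5 with the members (median 0.59), against 1 of 3 without the pair of mice. Of 8 T and NK cell genes and 5 B cell genes 0 passed the filter, with at most 15 counts per gene and mouse. The mean of the 5 red blood cell genes had an r of 0.33 with the members, and 0.73 without the pair of mice, where 5 of 5 genes reached 0.5. The 10 skeletal muscle genes had an r of 0.38 with the members (rho 0.20). The total count had -0.54 (rho -0.41) and the TMM factor 0.64 (rho 0.79). By rho the TMM factor lay above the macrophage mean (0.75). Without the pair of mice the r of the TMM factor was 0.47, and that of the macrophage mean 0.64. With the muscle score as a covariate the log2FC of Ifit1 was 0.50. The part of cell makeup in the members' spread was not tested.

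**Figure D5:**
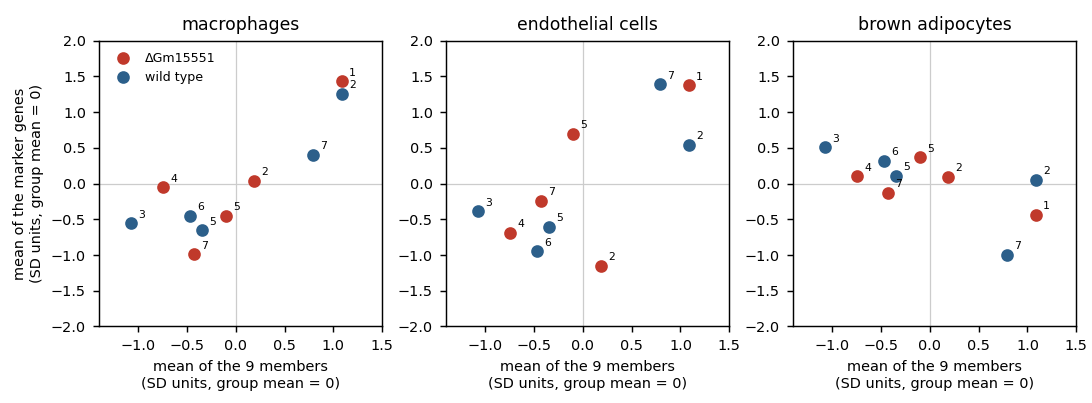
Mean of the marker genes of macrophages, endothelial cells and brown adipocytes (vertical, in SD units with each group's mean at 0) against the mean of the 9 members (horizontal, same units) in 5 ΔGm15551 (red) and 5 wild type (blue) mice, numbered by replicate. The 3 mice farthest to the right, ΔGm15551 replicate 1 and wild type replicates 2 and 7, are also highest in macrophage genes, with an r of 0.86, and the mean of the brown adipocyte genes runs the other way (r of -0.66).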

How the data were processed

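Poly A RNA from iBAT was sequenced in paired-end reads. Reads were filtered by the authors with cutadapt and quantified with salmon against GENCODE M22 on GRCm38 (or M22 joined with RNAcentral), with versions not given in the sources used here. The values deposited by the authors were estimated counts (expected counts) per gene, rounded to whole numbers, 1 column per mouse, with no scaling to depth. Whether counting used strand is not stated. Salmon shares reads that fit several transcripts, which matters for Ifit3 and Oas1a.

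Counts were fitted in R 4.3.3 with edgeR 4.0.16 (filterByExpr with a minimum count of 10 and a minimum total of 15, TMM, robust glmQLFit, glmQLFTest), with genotype as the only term, and Benjamini-Hochberg adjustment ran over the 13732 genes kept. DESeq2 1.42.0 and limma 3.58.1 were alternatives, besides library totals, DESeq2 size factors, other filters, a block for the replicate number, single mice left out, the lower number series, a muscle score and summed paralogs. A prior count of 2 was used for log2 CPM. The pipeline was tested on simulated data. Positions came from GENCODE M21 (GRCm38), which held 99.5% of the IDs, and promoters from RefSeq. Correlations used deviations from group means.

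The members and gene lists were chosen with earlier results of these data known. Genes named were the members, Gm15551, Ucp1, Ifnar1, Ifnar2, Jak1, Tyk2, Irf9, Irf3, Usp18, Ifit3b, Oas1g, the gene with the smallest p of each interferon list, the 10 genes most like the members and markers. A gene that the rule also names is not reported here. The correlation limit of 0.5, Ifi27l2a, Ifnb1, Ifnz, Ifng, Il3ra and the macrophage genes given singly were chosen after the values were seen, as were the correlations without the pair of mice farthest from the median. The labels give each mouse its own identity number, so replicates are separate animals. A check for a library deposited under 2 names found none (smallest chi-square per degree of freedom within a group 11.3).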

Additional observations from a re-analysis of the deposited data

Results flagged for a closer look

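Over the 9 members and 5 summed marker lists, a single stray mouse was looked for in each of 28 sets of 5 mice, using Dixon's ratio with a limit of 0.71. It was found in 3 sets. A chance rate of about 1 in 20 groups would give 1.4 here. That rate assumes independent sets with a normal spread, and the members varied together, so 3 and 1.4 cannot be set against each other. Ifit1 in wild type replicate 2 was at 3.49 CPM, with the nearest wild type mouse at 2.15 and the farthest at 1.71 (ratio 0.757). Wild type replicate 7 held 2939 CPM of summed skeletal muscle genes, and in the remaining 4 wild type mice the sum was 1.56 to 282 CPM (ratio 0.905). The same mouse had 2544 CPM of summed red blood cell genes, against 614 to 1068 CPM (ratio 0.765). In these mice the members Isg15, Irf7, Stat2, Oas1a and Rsad2 were highest of the wild type group in replicate 7, and Ifit1, Ifit3, Bst2 and Ifi27 in replicate 2.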

How the results depend on the processing

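No member and no gene was called at an adjusted p under 0.05 in any of the 20 alternatives that give these counts. Of 182 log2FC values of single members, 158 kept their direction and 24 changed sign. At an unadjusted p under 0.05 the 1 member (1.59% of all genes) became 0 with library totals (1.35%), without a filter (2.8%), with the muscle score (2.01%), in the lower number series (1.91%) and in the 6 mice with shared numbers with (2.88%) or without the block (4.0%), and 0 to 1 when single mice were left out (1.2% to 3.03%, Isg15 without wild type replicate 7, otherwise Ifit1). The further interferon genes went from 0 to 2 without a filter, namely Ifnz and Ifng, which had at most 3 counts in any mouse. The further genes went to 2 in the lower series, to 5 with the block and to 4 in the same 6 mice without it. When single mice were left out there were 0 to 3, with 3 without ΔGm15551 replicate 1 (3.03%). These counts stand beside the same shares of all genes.

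Replicate numbers are shared by 3 pairs. Deviations of same-numbered mice correlated at 0.17, -0.22 and -0.10, and those of mice with different numbers at -0.29 to 0.34. So few values cannot decide whether the numbers pair the mice. With the replicate number as a block the log2FC was -0.23 for Irf7, -0.29 for Oas1a, -0.097 for Ifi27 and -0.092 for Rsad2, and 397 genes (2.88%) had an unadjusted p under 0.05, while the same 6 mice without the block gave 552 (4.0%) and all 10 mice 219. In the same 6 mice without the block these members were at -0.26, -0.31, -0.090 and -0.073. limma-voom gave -0.046 for Oas1a, and the lower series -0.019 for Ifi27. When single mice were left out, Ifit1 ran from 0.42 to 0.71, Ifit3 from -0.28 to -0.025, Isg15 from 0.27 to 0.64, Stat2 from -0.18 to -0.038, Bst2 from 0.11 to 0.33, Irf7 from -0.11 to 0.18, Oas1a from -0.31 to 0.23, Ifi27 from -0.019 to 0.086 and Rsad2 from -0.022 to 0.21. The cause was not tested. The difference in Gm15551 stayed between -0.29 and -0.17 CPM, with an exact permutation p of 0.0873 without any 1 ΔGm15551 mouse and 0.00794 without wild type replicate 7, which had 0 counts. Between 58 and 71 further interferon genes reached an r of 0.5 when single mice were left out, beside 18.7% to 26.5% of all genes, and 73 with library totals, beside 30.8%. The depth limits Oas1a, Isg15 and Ifit1 most, with at most 59 counts per mouse.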
